A study of Mus musculus with 24 samples.

Results

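The 43 genes described here are interferon-stimulated genes, named by symbol from a fixed list, and they make up 43 of the 55335 genes listed for peripheral blood mononuclear cells (PBMCs) and 43 of the 33967 gene names listed for cell-surface RNA. The list covers 13 functional classes, from the ubiquitin-like modifier ISG15 to subunits of the immunoproteasome. All samples were murine. Total RNA of PBMCs from blood was sequenced in 9 libraries of wild-type genotype, 3 in each of the treatment groups named ct, WT and Y, and the labels do not say what these treatment names stand for. RNA exposed on the outer membrane was measured in 15 libraries of WT C57BL/6 genotype, 3 each from B cells, T cells (isolated with a kit for CD8 cells) and NK cells of the spleen, and from hematopoietic stem and progenitor cells (HSPCs, enriched by lineage depletion) and monocytes of the bone marrow. The ages of the mice are not given in the sources used here, and neither is whether the 3 PBMC libraries of a group came from separate animals, whereas the surface libraries are described in the study as biological replicates.

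Interferons are secreted by cells that sense foreign or misplaced nucleic acid. Type I interferon binds its receptor on the same or neighbouring cells, the kinases JAK1 and TYK2 phosphorylate STAT2, and this joins IRF9 in a complex that binds the interferon-stimulated response element (ISRE) in target promoters. Type II interferon acts through gamma-activated sites (GAS) in promoters. Many of the induced proteins block viral entry, bind viral RNA or degrade it, and the genes are also expressed at a low tonic level in unchallenged leukocytes.

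Promoter windows were read for 5 members on which the results below turn, to show which of them carry the letters of these elements near the start of transcription. Each window is 300 bases of RefSeq sequence, build GRCm38.p6, from 250 bases before to 50 bases after the start, written 5′ to 3′ on the strand of the gene. Capitals mark the core of the ISRE, spelled GAAA, then any 2 bases, then GAAA, and the GAS, TTCNNNGAA, both searched on either strand. A match may overlap another and is counted on its own. Rsad2 encodes viperin, an antiviral radical SAM enzyme, and lies on the minus strand with its window at chr12:26456403-26456702. Cmpk2, a mitochondrial nucleotide kinase, is its neighbour on the plus strand with a window at chr12:26468965-26469264. The windows of Isg15 (chr4:156200769-156201068), of Ifitm3 (chr7:141010695-141010994) and of Lgals3bp (chr11:118401910-118402209) are all on the minus strand.
Rsad2: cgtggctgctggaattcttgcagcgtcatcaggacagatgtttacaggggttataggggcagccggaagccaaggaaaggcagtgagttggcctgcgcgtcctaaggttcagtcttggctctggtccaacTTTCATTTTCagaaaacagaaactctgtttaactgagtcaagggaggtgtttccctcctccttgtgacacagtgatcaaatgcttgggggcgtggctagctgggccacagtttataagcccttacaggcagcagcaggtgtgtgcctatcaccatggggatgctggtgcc
Cmpk2: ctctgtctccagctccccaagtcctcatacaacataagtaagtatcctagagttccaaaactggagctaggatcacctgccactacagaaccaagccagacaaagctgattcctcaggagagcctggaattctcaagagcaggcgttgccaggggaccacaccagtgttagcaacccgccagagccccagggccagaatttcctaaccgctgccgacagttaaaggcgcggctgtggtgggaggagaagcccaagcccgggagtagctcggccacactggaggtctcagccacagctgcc
Isg15: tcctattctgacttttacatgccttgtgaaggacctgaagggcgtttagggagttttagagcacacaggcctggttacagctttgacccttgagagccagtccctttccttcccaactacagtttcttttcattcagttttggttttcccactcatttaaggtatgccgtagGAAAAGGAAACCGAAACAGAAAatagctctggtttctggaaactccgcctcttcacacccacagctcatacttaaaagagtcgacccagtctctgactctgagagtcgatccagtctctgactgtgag
Ifitm3: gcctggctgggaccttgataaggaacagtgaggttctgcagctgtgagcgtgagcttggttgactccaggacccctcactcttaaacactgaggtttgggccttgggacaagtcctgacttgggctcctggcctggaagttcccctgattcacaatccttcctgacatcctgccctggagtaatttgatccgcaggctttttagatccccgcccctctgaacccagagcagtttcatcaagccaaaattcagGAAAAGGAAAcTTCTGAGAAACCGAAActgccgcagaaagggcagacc
Lgals3bp: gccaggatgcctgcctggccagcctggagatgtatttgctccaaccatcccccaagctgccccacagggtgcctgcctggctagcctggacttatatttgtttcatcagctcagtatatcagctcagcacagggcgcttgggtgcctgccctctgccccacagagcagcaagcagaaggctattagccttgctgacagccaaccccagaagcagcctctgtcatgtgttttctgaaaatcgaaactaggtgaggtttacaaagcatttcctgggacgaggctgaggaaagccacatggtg
The Rsad2 window held 1 ISRE core, whose first base lay at position -120 from the start. The Isg15 window held 3 overlapping ISRE cores, at -78, -72 and -66. The Ifitm3 window held 2 ISRE cores at positions 2 and 19 after the start and 1 GAS at 13, which overlaps the second of them. In Cmpk2 and Lgals3bp neither set of letters was found in this window.

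Of the 43 members, 33 had a window in the RefSeq table. The ISRE core was found in 17 of these 33 (51.52%), against 3.993% of all 27025 genes with a window of the same length. The GAS letters were found in 10 of 33 (30.3%), against 9.554% of all genes. Of the 4 IFIT genes, Ifit1, Ifit3 and Ifit3b held the ISRE core and Ifit2 did not. All 3 GBP genes held it, and of the transcription factors Stat2 did and Irf7 and Irf9 did not. A match describes the letters and says nothing of binding.

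The PBMC libraries held 4686432 to 9055803 counts, and the least deep was replicate 1 of Y. Ribosomal and mitochondrial genes took 53.963% to 58.98% of these counts. None of the marker genes of 9 blood cell types or lineages was at 0 in all 9 PBMC libraries. The surface tables give TPM, transcript levels corrected for length and scaled to a fixed sum, which keep no depth, so the depth of these libraries is unknown. Transcripts typed as protein-coding held 0.645% to 2.96% of the TPM in B cell, T cell, HSPC and NK cell libraries and 16.9% to 18.1% in monocyte libraries. The monocyte libraries alone were sequenced on a DNB instrument and the other 12 on an Illumina one, and for monocytes platform and cell type cannot be told apart. The monocyte table also lists 149488 transcripts, whereas each of the other 4 lists 102168. The 102070 transcripts listed in all 5 tables held 99.06% to 99.24% of the monocyte TPM and 99.56% to 99.6% of its protein-coding TPM.

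In PBMCs the comparison of ct, WT and Y asked whether any of the 43 genes differed in total RNA between the 3 treatment groups. Rsad2 was the only member called, and it was lower in both WT and Y than in ct. Among the members that were not called, log2 fold changes reached 0.68 in WT against ct (Oasl2), as far from 0 as that of Rsad2. The test was edgeR's quasi-likelihood test after TMM scaling, with calls at a Benjamini-Hochberg adjusted p below 0.05 over 11635 genes. In bulk RNA, fewer cells of a type and less RNA per cell cannot be told apart. A total of 42 members entered the test, and Oas1a, an oligoadenylate synthetase, had 0 counts in all 9 libraries. A count of 0 allows a level of up to 0.326 to 0.652 CPM (counts scaled to library size) per library, taking 3 counts as the limit, for counting error only. Oas1g, with which Oas1a shares 68.7% of its 31-base words, was also at 0 counts in all 9 libraries.

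Rsad2 had 224, 157 and 249 counts in the 3 ct libraries, 141, 133 and 127 in WT, and 69, 129 and 112 in Y. After scaling this gave 26.6, 23.5 and 29.4 CPM in ct, 15.3, 16.8 and 17.9 for WT and 15, 16.7 and 14.4 for Y. Every WT and Y library lay below every ct library, and WT and Y overlapped. The mean was 26.5 ± 2.99 CPM in ct, 16.7 ± 1.29 in WT and 15.4 ± 1.21 in Y (SD, n = 3 each). The log2 fold change was -0.68 in WT against ct (SE 0.107, edgeR adjusted p = 0.00191) and -0.78 in Y against ct (SE 0.112, edgeR adjusted p = 0.00218). In Y against WT it was -0.11, with a 95% interval from -0.36 to 0.14 (edgeR adjusted p = 0.81). The gene lies at chr12:26442746-26456452 of GRCm38 on the minus strand. The comparisons of WT and of Y with ct share the 3 ct libraries.

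Rsad2 was 1 of 42 members called lower in each of these 2 comparisons, where 1.6% of all genes tested were called lower in WT and 0.438% in Y. None of the 42 members was called higher than ct, against 0.765% of all genes in WT and 0.258% in Y. In Y against WT no member was called in either direction by edgeR or by DESeq2, where edgeR called 0.438% of all genes higher and 0.817% lower. At an unadjusted p below 0.05, edgeR gave 1 member higher in Y than in WT (Sp100) and 5 lower (Bst2, Cmpk2, Ifi27l2a, Irf7 and Ly6e), against 5.6% and 6.15% of all genes. In WT against ct the same limit gave 5 higher and 3 lower (all genes, 5.79% and 5.96%), and in Y against ct 1 higher and 2 lower (3.77% and 4.84%).

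Markers of other blood cells moved beside Rsad2. All 6 erythroid markers were called lower in WT than in ct and 5 of 6 in Y, and their summed level was 6844 to 8212 CPM in ct, 4256 to 4942 for WT and 4425 to 4995 for Y. All 5 platelet markers were called lower in WT and 2 of 5 in Y, with sums of 405 to 438 CPM in ct, 259 to 286 for WT and 324 to 325 for Y. Both sums fell in the same 2 groups as Rsad2 and overlapped in no library with ct. Their part in the result was not tested. Neutrophil markers were highest in Y, at 78.3 to 94.1 CPM in ct, 71.4 to 77.8 for WT and 208 to 226 for Y. The summed markers of plasmacytoid dendritic cells, which produce type I interferon, were 23.3 to 25.0 CPM in ct, 22.0 to 25.5 for WT and 20.3 to 21.8 for Y, so that Y lay below ct. Of these 5 markers only Tcf4 and Ccr9 had enough counts to be tested, and neither was called. Siglech, Klk1 and Cox6a2 reached at most 10, 3 and 1 counts. In the surface libraries Tcf4 was at 2.98 to 4.03 TPM in B cells and Ccr9 at 1.23 to 3.84 TPM in T cells. The sum is therefore not particular to plasmacytoid dendritic cells. Other marker sums lay above ct and Y in every WT library, as did Irf7 and Cmpk2, described below. NK cell markers summed to 64.1 to 66.8 CPM in WT, 50.7 to 53.5 in ct and 51.5 to 53.1 in Y, with Ncr1 and Klrb1c called higher in WT than in ct. Monocyte markers summed to 288 to 301 CPM in WT, 247 to 286 in ct and 241 to 259 in Y, with Ly6c2 called higher, and B cell markers to 223 to 235, 206 to 212 and 206 to 212 CPM, with none called. In all 3 lists every WT library lay above every library of ct and Y.

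Cmpk2 starts 12751 bases from Rsad2 and is transcribed in the opposite direction, at chr12:26469204-26479837. Its level was 5.22, 4.93 and 4.49 CPM in ct, 7.50, 7.32 and 5.64 for WT and 5.22, 4.93 and 4.76 for Y. The WT libraries lay above all ct and Y libraries, as did their summed NK cell, monocyte and B cell markers, whose part in this was not tested. The log2 fold change was 0.49 in WT against ct (SE 0.164, edgeR adjusted p = 0.181), which missed the threshold. In Y against ct it was 0.02 (SE 0.181), with a 95% interval from -0.36 to 0.40.

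**Figure D1:**
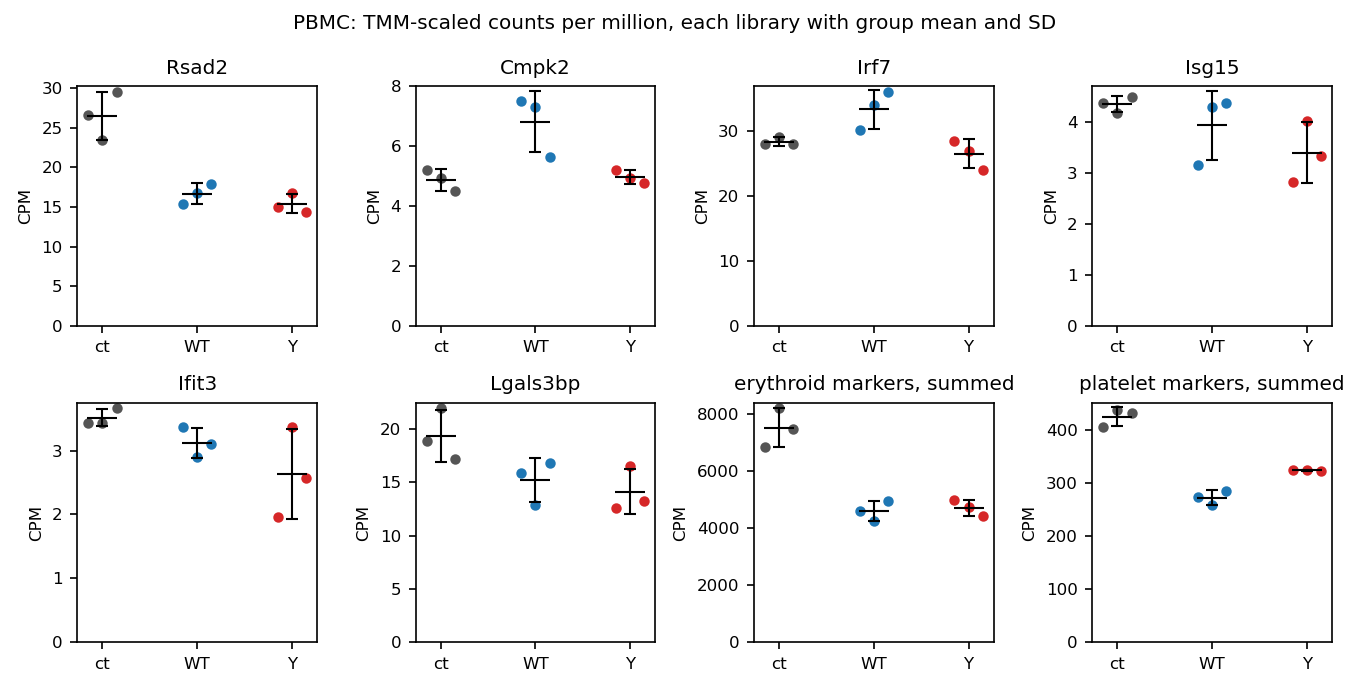
Level of 6 interferon-stimulated genes and the summed level of erythroid and platelet markers in PBMCs. The vertical axes give TMM-scaled CPM and start at 0, points are the 3 libraries of ct, WT and Y, and bars give the group mean and SD. All WT and Y libraries of Rsad2 lie below the 3 ct libraries, and all WT and Y libraries lie below ct in both marker sums too.

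The transcription factors of the list were not called. Irf7, which amplifies type I interferon production, was at 28.0, 29.1 and 28.0 CPM in ct, 30.1, 34.0 and 36.0 for WT and 28.5, 27.0 and 24.1 for Y. Its WT libraries lay above those of both other groups, as for Cmpk2 and the same 3 marker sums, with a log2 fold change of 0.23 against ct (SE 0.0941, edgeR adjusted p = 0.336). Y against WT gave -0.34 (SE 0.0967, edgeR adjusted p = 0.132), the smallest adjusted p among the members in that comparison. Stat2, a subunit of the ISRE-binding complex, was at 13.8, 15.1 and 13.8 CPM in ct, 13.4, 14.1 and 13.5 for WT and 13.1, 13.2 and 13.6 for Y. Its Y libraries all lay below ct, by a log2 fold change of only -0.09 (SE 0.102, edgeR adjusted p = 0.913).

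Isg15, the ubiquitin-like modifier, was at 4.39, 4.18 and 4.49 CPM in ct, 3.15, 4.29 and 4.37 for WT and 2.83, 4.02 and 3.34 for Y. The Y libraries lay below ct and the WT libraries overlapped it, and neither difference passed the test (log2 fold change in Y against ct -0.33, SE 0.213, edgeR adjusted p = 0.756). Ifit3, which joins other IFIT proteins that bind foreign RNA ends, was at 3.44, 3.44 and 3.66 CPM in ct, 3.37, 2.90 and 3.10 for WT and 1.96, 3.37 and 2.57 for Y. All 6 WT and Y libraries lay below ct, with a log2 fold change of -0.37 in Y (SE 0.238, edgeR adjusted p = 0.758). Its reads may be shared with Ifit3b, since 61.8% of the 31-base words of Ifit3 also occur there. Ifit1, which binds RNA that lacks a methylated cap, was at 3.91, 3.44 and 3.78 CPM in ct, 3.04, 2.90 and 4.65 for WT and 2.61, 2.85 and 3.99 for Y, and the groups overlapped.

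Mx1, a GTPase of the dynamin-like Mx family, was at 2.49, 2.09 and 2.72 CPM in ct, 3.70, 1.77 and 2.54 for WT and 1.96, 1.82 and 2.19 for Y. Its groups overlapped, and leaving out WT replicate 1 turned the sign of WT against ct. Eif2ak2, the kinase PKR that halts translation on binding double-stranded RNA, was at 2.73, 1.49 and 2.36 CPM in ct, 2.5, 3.53 and 2.54 for WT and 3.26, 2.33 and 3.09 for Y. Oasl2, a member of the oligoadenylate synthetase family, had the highest log2 fold change of the list in WT against ct, 0.68 (SE 0.311, edgeR adjusted p = 0.411). It was at 2.02, 2.09 and 1.18 CPM in ct, 3.15, 3.03 and 2.12 for WT and 1.31, 2.72 and 2.32 for Y, so that the lowest WT library was just above the highest ct library.

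Lgals3bp, a secreted glycoprotein that binds galectins, came nearest to Rsad2 in Y. It was at 18.8, 22.0 and 17.1 CPM in ct, 15.9, 12.9 and 16.8 for WT and 12.6, 16.5 and 13.3 for Y. Every WT and Y library lay below every ct library. The log2 fold change was -0.34 in WT (SE 0.129, edgeR adjusted p = 0.274) and -0.43 in Y (SE 0.134, edgeR adjusted p = 0.267), and both missed the threshold.

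Counted over the list, the libraries of WT lay wholly above ct for 5 of 42 members and wholly below for 4 (all genes, 7.62% and 8.59%). In Y against ct 3 members lay above and 6 below (5.68% and 7.55%), and in Y against WT 2 above and 6 below (8.55% and 8.77%). The 6 below in Y against ct were Rsad2, Lgals3bp, Ifit3, Ifitm3, Isg15 and Stat2. The median log2 fold change over the 42 members was 0.04 in WT against ct, -0.05 in Y against ct and -0.11 in Y against WT, where the medians over all genes tested were 0.004, -0.005 and 0.001. In Y against WT 31 of 42 members had a fold change below 0, and 50.2% of all genes had one above 0. No class held a call other than that of viperin, and their fold changes ranged over -0.11 to 0.68 for the oligoadenylate synthetases in WT against ct, -0.23 to 0.36 for the 6 IRG and GBP GTPases, and 0.10 to 0.15 for the immunoproteasome subunits Psmb8 and Psmb9.

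The data bound the size of what was not called. In WT against ct the 95% intervals of all 41 other tested members lay above the estimate for Rsad2, and in Y against ct those of 38 of 41 did. The interval of Rsad2 itself ran from -0.90 to -0.45 in WT and from -1.02 to -0.55 in Y. The other members were therefore not shown to differ from Rsad2. A change of more than 1 on the log2 scale in either direction lay outside the interval for 39 of 41 members in WT against ct, for 40 of 41 in Y against ct and for 39 of 41 in Y against WT. The exceptions were Ifit3b, Oasl2 and Mx1, which are scarce here. A change of more than 0.5 in either direction lay outside the interval for 23, 24 and 24 members.

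**Figure D2:**
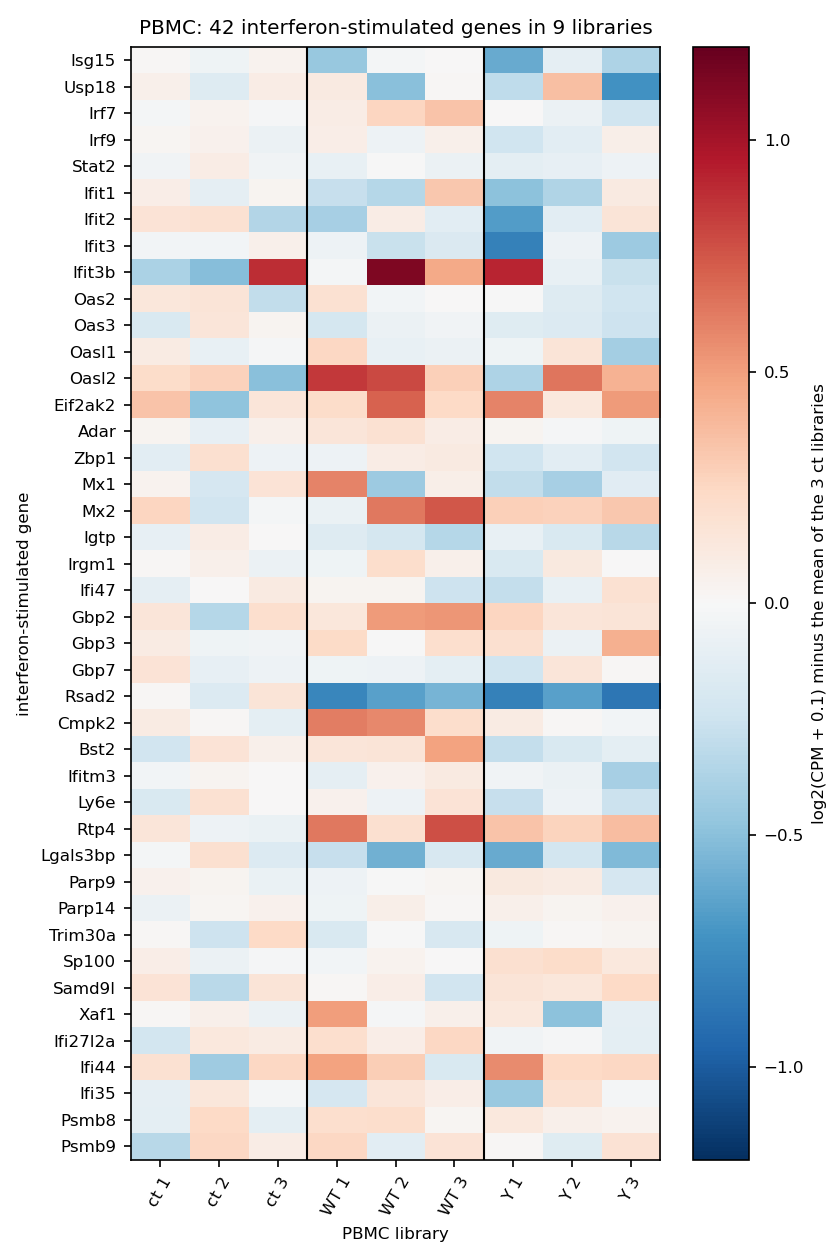
The 42 interferon-stimulated genes with counts, in rows, and the 9 PBMC libraries, in columns. Colour gives log2(CPM + 0.1) minus the mean of the 3 ct libraries, red above and blue below. The row of Rsad2 is blue in all 6 WT and Y libraries, as are, more faintly, those of Lgals3bp, Igtp, Ifit3, Oas3 and Stat2, none of which was called.

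Summed over the list, the members took 646 ± 8.66 CPM in ct, 650 ± 5.83 in WT and 619 ± 12.5 in Y (SD, n = 3 each). The lowest ct library had 636 CPM and the highest Y library 633. Sp100, Ly6e and Parp14 made up 22.6% to 24.8% of the sum. Per length, the highest members in PBMCs were Ly6e, with a mean of 15.6 TPM over the 9 libraries, and Ifi27l2a with 15.4 TPM. Ifitm3 (9.16 TPM), Sp100 (8.64), Psmb8 (6.33) and Irf7 (4.43) followed. Rsad2 ranked at position 22 of the list with 1.45 TPM.

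Of 63 other genes of the pathway, 50 were tested in PBMCs. None of the 11 interferon ligands had enough counts to be tested, and none of 5 tested receptor subunits was called in any comparison. In WT against ct 1 of the 50 was higher (all genes, 0.765%) and 2 lower (1.6%), in Y against ct none was higher (0.258%) and 1 lower (0.438%), and in Y against WT 2 were higher (0.438%) and 1 lower (0.817%). Irf1, a transcription factor induced by type II interferon, rose by a log2 fold change of 0.46 (SE 0.0764, edgeR adjusted p = 0.00274). Socs3, an inhibitor of JAK kinases, fell by 0.48 on the log2 scale (edgeR adjusted p = 0.0109). Ube2l6, the enzyme that conjugates ISG15 to its substrates, fell by 0.60 (edgeR adjusted p = 0.00485), and in Y against ct it was the only call, at -0.79 (SE 0.114, edgeR adjusted p = 0.00218). In Y against WT Ifitm1 was higher by 1.09 (edgeR adjusted p = 0.019), Socs3 was higher by 0.52 (edgeR adjusted p = 0.0137) and Irf1 was lower by 0.36 (log2 fold change -0.36, edgeR adjusted p = 0.0301).

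In the surface libraries the question was at which level RNA of these genes was read in the 5 cell types. The assay enriches RNA at the surface, and the part of RNA from inside the cells in these values was not tested. Most values were low for this assay, in which a transcript above 50 TPM counts as a positive hit. Of the 645 values of the 43 genes in 15 libraries, 17 exceeded 50 TPM. These were Ly6e in all monocyte and B cell libraries and 1 NK cell library, Ifitm3, Ifi27l2a and Sp100 in all monocyte libraries, and Psmb8 in 1 of them. By single transcript, 6 of 203 exceeded it in any library, and they belong to Ly6e, Ifitm3 and Ifi27l2a. No member did in T cells or HSPCs, and values under the limit are given below as levels, not as hits. The sum over the 43 members was 1356 to 1567 TPM in monocytes, 201 to 280 for B cells, 65.8 to 139 for NK cells, 37.0 to 92.4 for T cells and 38.6 to 67.1 for HSPCs. The means in the same order were 1436 ± 114, 237 ± 40.1, 105 ± 36.7, 68.6 ± 28.5 and 54.3 ± 14.5 TPM (SD, n = 3 each). Monocytes lay above all other libraries, and B cells above those of T cells, HSPCs and NK cells. T cells overlapped with both HSPCs and NK cells.

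Protein-coding RNA took a larger share of the monocyte libraries than of the others, so the sum was also taken as coding TPM, that is over protein-coding transcripts alone and rescaled so that these sum to 1000000 in each library. The means were then 6530 ± 431 coding TPM in monocytes, 6107 ± 580 for B cells, 4945 ± 253 for T cells, 3286 ± 153 for NK cells and 2426 ± 160 for HSPCs (SD, n = 3 each). B cells and monocytes overlapped on this scale. HSPCs had the lowest 3 libraries, at 2242 to 2530, and the lowest NK cell library stood at 3167. Ly6e, Ifitm3 and Ifi27l2a made up most of the sum in B cells and monocytes, at 71.6% to 72.6% and 63.6% to 64.7% of its TPM. In HSPCs they made up 54.5% to 57.0%. Without these 3 genes the sum in coding TPM was highest in T cells (2524 ± 181) and monocytes (2407 ± 149), followed by B cells (1904 ± 123) and NK cells (1869 ± 27.7), and lowest in HSPCs (1240 ± 27.2).

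**Figure D3:**
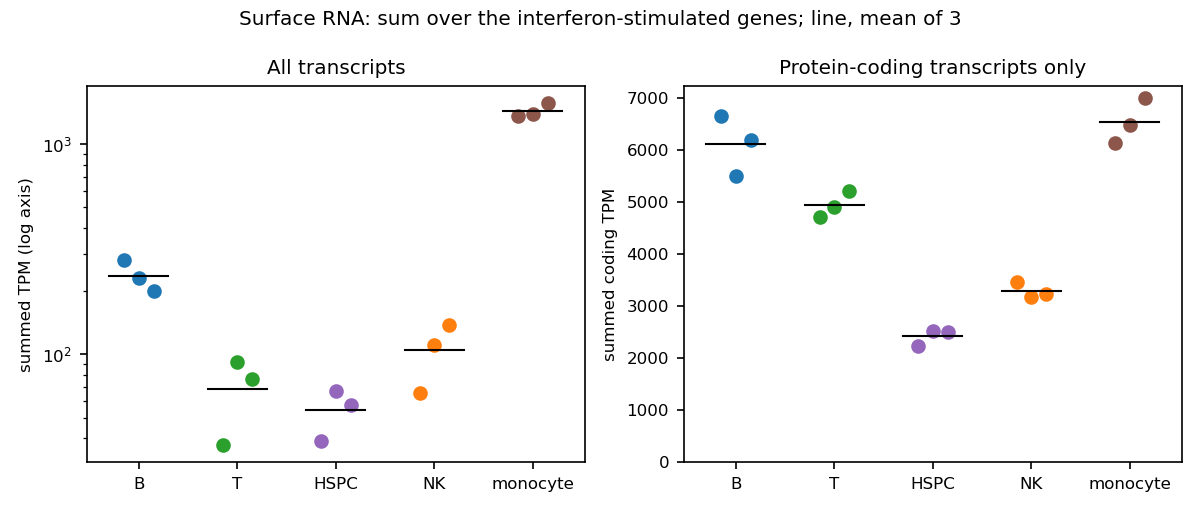
Sum over the 43 interferon-stimulated genes in each of the 15 surface libraries. The left axis gives TPM of all transcripts on a log axis, the right axis gives the sum in coding TPM and starts at 0, and lines mark the mean of 3 libraries. Monocytes stand apart on the left, at 1356 to 1567 TPM, and lie level with B cells on the right, where HSPCs are lowest.

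The labels of the cell types were checked against marker genes. Each marker list of the 5 types was highest in its own type in coding TPM. In TPM the HSPC markers were higher in monocytes (468 to 736) than in HSPCs (87.8 to 194). The 7 neutrophil markers summed to 1419 to 1486 TPM in monocytes and to at most 52.0 TPM in any other library, and in coding TPM to 7903 to 8693 in monocytes, 903 to 2665 in HSPCs and 948 to 2056 in NK cells. HSPC libraries also held platelet markers, at 1552 to 1688 coding TPM where no library of another type exceeded 676, and erythroid markers, at 1626 to 2470, with 39.2 to 1299 in B cells, T cells and monocytes and 402 to 4331 for NK cells, the highest being replicate 1. T cell libraries held NK cell markers at 891 to 965 coding TPM, with at most 229 in B cells, HSPCs and monocytes. In TPM their sum in T cells was 5.84 to 14.6, of which Nkg7 alone took 4.84, 11.8 and 9.76. Ncr1 was at 0.0064, 0.0095 and 0.0083 TPM there. NK cell libraries held B cell markers at 321 to 599 and T cell markers at 174 to 270. In TPM the T cell markers summed to 3.85 to 11.7 in NK cells, of which Lck alone took 2.53, 8.01 and 6.57. Cd3e was at 0, 0.0813 and 0.0639 TPM there. Plasmacytoid dendritic cell markers were highest in T cells, at 178 to 231 coding TPM. They were at 103 to 138 in B cells and at most 112 in the other types. In TPM their sum in T cells was 1.38 to 4.12, of which Ccr9 alone took 1.23, 3.84 and 2.40. Siglech was at 0, 0.0147 and 0 TPM there. A sum that rests mainly on 1 gene does not show that such cells were present. The part of other cells in the levels below was not tested.

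Ly6e, a membrane-anchored protein that acts on viral entry, was the most abundant member on the surface. Its level was 520, 492 and 526 TPM in monocytes, 174, 135 and 106 for B cells, 25.5, 43.7 and 58.6 for NK cells, 11.9, 28.9 and 25.6 for T cells and 18.5, 33.5 and 27.4 for HSPCs. Monocytes and B cells each lay apart from the other cell types, and the remaining types overlapped. In coding TPM, B cells led with 3623, 2443 and 2343, and HSPCs were lowest with 807, 1035 and 968.

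Ifitm3, which holds back the fusion of viruses in endosomes, had the largest ratio between its highest and lowest cell type mean in TPM. It was at 0.355, 0.155 and 0.241 TPM in B cells and 0.0916, 0.0694 and 0.401 in T cells. HSPCs had 2.18, 4.49 and 4.07 TPM and NK cells 2.57, 2.61 and 4.77, whereas monocytes had 273, 296 and 337. B and T cells lay below the other types, HSPCs and NK cells overlapped, and every monocyte library exceeded all others. Its ISRE cores lie just after the start of transcription (window above).

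Ifi27l2a, a small mitochondrial and nuclear envelope protein induced by type I interferon, separated the cell types in another order. It was at 85.4, 93.5 and 152 TPM in monocytes, 28.8, 29.7 and 38.0 for B cells, 1.01, 0.999 and 1.68 for NK cells, 4.83, 8.72 and 11.5 for T cells and 0.399, 0.243 and 0.438 for HSPCs. No pair of cell types overlapped. In coding TPM, B cells (998, 1273 and 1899) lay above monocytes (482, 552 and 836), with T cells at 750, 575 and 955, and HSPCs at 34.9, 12.6 and 26.8.

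Lgals3bp had its highest mean coding TPM in NK cells. Its level was 15.9, 23.0 and 24.3 TPM in monocytes, 1.16, 1.23 and 1.03 for B cells, 6.77, 8.49 and 14.1 for NK cells, 1.28, 3.71 and 3.24 for T cells and 4.04, 6.46 and 5.68 for HSPCs. In coding TPM it was 455, 338 and 470 in NK cells, 345, 332 and 336 in HSPCs, 199, 245 and 259 in T cells, 89.9, 136 and 134 in monocytes, and 38.9, 47.7 and 51.4 in B cells. NK cells and HSPCs overlapped. Monocytes had the highest mean TPM, and a lower mean coding TPM than every type but B cells.

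**Figure D4:**
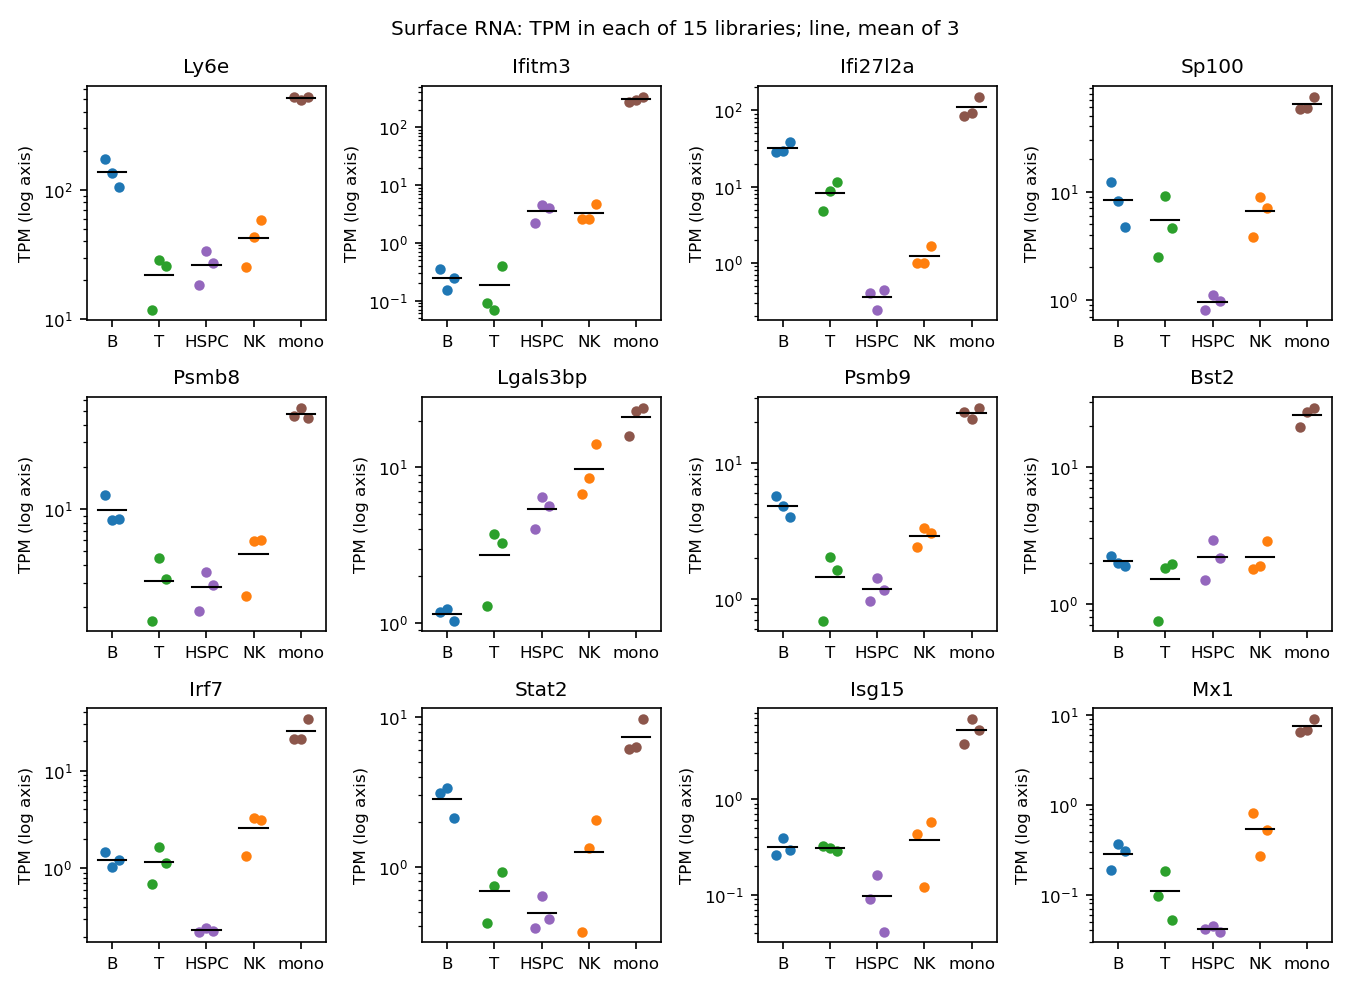
Level of 12 interferon-stimulated genes in each of the 15 surface libraries. The vertical axes give TPM on a log axis, points are single libraries and lines mark the mean of 3. Monocytes are highest in each panel, Ifitm3 is lowest in B and T cells, and Ifi27l2a is lowest in HSPCs.

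Each cell type was compared with the mean of the other 4 by limma on log2(TPM + 1), over 10266 genes with a mean above 1 TPM, and differences on this scale understate those of scarce genes. Of the 43 members, 33 passed this minimum. Of these, 14 passed through the monocyte libraries alone (Cmpk2, Eif2ak2, Gbp2, Gbp3, Gbp7, Isg15, Mx1, Oas1a, Oas3, Oasl2, Rtp4, Samd9l, Xaf1 and Zbp1), so their being higher there was set by the minimum, and their levels in TPM are given with no test. The other 19 passed also without monocytes, as did 5844 of all genes. The counts in TPM below are over these, unless all 33 are named. The same test was run on log2(coding TPM + 1) over 12589 genes, of which 41 were members. Mx2 has no transcript typed as protein-coding, and Ifi44 stayed under the minimum. The 5 comparisons share libraries and are not independent of each other. Between the 2 scales the median of all genes moved from -0.78 to 0.05 in HSPCs and from 2.48 to 0.32 in monocytes, and differences between cell types are read relative to these medians.

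Monocytes were higher than the other types in TPM for all 19 members that passed the minimum without them, where 83.6% of the 5844 genes were higher and 7.34% lower. The log2 differences were 7.04 for Ifitm3 (SE 0.195, limma adjusted p = 1.6e-13) and 4.30 for Ifi27l2a (SE 0.234, limma adjusted p = 1.4e-10). The median over the 19 members was 2.88, against 2.53 over those genes. In coding TPM 24 of 41 members were higher (all genes, 38%) and 4 lower (17.5%), with a median of 0.90 against 0.32. Ifitm3 (5.17), Oas1a (2.45) and Ifi27l2a (1.67) were higher on this scale.

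Oas1a, at 0 counts in PBMC total RNA, was at 13.8, 16.2 and 19.7 TPM in monocytes. Elsewhere it was at 0.682, 0.518 and 0.603 TPM for B cells, 0.291, 0.313 and 0.6 for NK cells, 0.173, 0.322 and 0.357 for HSPCs, and 0.0919, 0.0945 and 0.101 for T cells. Because 68.7% of its words are shared with Oas1g, the estimate may divide reads between the pair. The members lower in monocytes in coding TPM were Ifi47, Igtp, Lgals3bp and Oasl1.

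HSPCs were lower than the other types for 18 of 19 members in TPM, where 77.6% of the 5844 genes were lower, and no member was higher (2.29%). Without the monocyte libraries in the fit 12 of 19 were lower in TPM (32.9%) and Ifitm3 was higher (7.37%). In coding TPM 28 of 41 members were lower (all genes, 20.9%) and 2 higher (24.6%), and the median difference was -0.97, against 0.05 over all genes. The HSPC libraries lay wholly below the other 12 for 16 of 41 members, against 5.78% of all genes. The mean was lowest in HSPCs for 26 of 41 members (63.41%) and for 19.37% of all genes tested. Leaving out the monocyte libraries in coding TPM, 23 of 41 members were lower (19.3%) and 4 higher (28.3%).

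The largest HSPC differences in coding TPM were -4.16 for Ifi27l2a (SE 0.276, limma adjusted p = 4.0e-08), -3.78 for Zbp1 (SE 0.19, limma adjusted p = 3.0e-09) and -2.83 for Irf7 (SE 0.208, limma adjusted p = 1.1e-07). ZBP1 senses nucleic acid in the Z form. Zbp1 had 3.17, 3.80 and 5.42 coding TPM in HSPCs and 45.0 to 119 in the other 12 libraries. Irf7 had 13.2, 5.77 and 8.45 coding TPM in HSPCs and 22.3 to 140 elsewhere. In neither gene did the libraries overlap.

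Over all transcripts, Irf7 was at 0.224, 0.248 and 0.227 TPM in HSPCs, 21.0, 21.2 and 34.0 for monocytes, 1.45, 1.03 and 1.21 for B cells, 1.32, 3.30 and 3.11 for NK cells and 0.699, 1.65 and 1.13 for T cells. The HSPC difference in TPM was -1.88 (SE 0.197, limma adjusted p = 2.9e-06). Sp100, a component of nuclear bodies, was at 0.812, 1.11 and 0.979 TPM in HSPCs, 57.9, 59.3 and 75.1 for monocytes, 12.3, 8.27 and 4.7 for B cells, 3.80, 9.00 and 7.02 for NK cells and 2.49, 9.16 and 4.62 for T cells. Its HSPC difference was -2.67 in TPM (SE 0.309, limma adjusted p = 6.6e-06) and -2.35 in coding TPM. For both genes all HSPC libraries lay below all others.

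Stat2 was at 0.388, 0.638 and 0.448 TPM in HSPCs, 6.15, 6.28 and 9.76 for monocytes, 3.08, 3.37 and 2.10 for B cells, 0.367, 1.34 and 2.05 for NK cells and 0.417, 0.739 and 0.92 for T cells. HSPCs overlapped with T and NK cells, and their difference was -1.13 in TPM (SE 0.205, limma adjusted p = 2.2e-04) and -0.996 in coding TPM. All 3 transcription factors of the list, Irf7, Irf9 and Stat2, were lower in HSPCs on both scales, and all 3 were higher in monocytes on both. Of all genes tested in TPM, 82.7% were called in either direction in HSPCs and 94.0% in monocytes. In coding TPM these shares were 45.5% and 55.6%. The calls in TPM are therefore no result about these 3 genes as a class. In B cells Stat2 was higher on both scales (0.57 and 1.13) and Irf7 lower on both (-0.81 and -0.70), although without monocytes Irf7 in TPM was at 0.09 and not called.

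Isg15 was at 0.0908, 0.161 and 0.0414 TPM in HSPCs, 3.75, 6.93 and 5.26 for monocytes, 0.26, 0.396 and 0.297 for B cells, 0.437, 0.121 and 0.58 for NK cells and 0.322, 0.31 and 0.288 for T cells. Only monocytes exceeded 1 TPM, and HSPCs overlapped with NK cells. Mx1 was at 0.0414, 0.0449 and 0.0387 TPM in HSPCs, 6.47, 6.81 and 9.13 for monocytes, 0.188, 0.371 and 0.303 for B cells, 0.815, 0.271 and 0.527 for NK cells and 0.0976, 0.183 and 0.0523 for T cells. The HSPC differences in coding TPM were -1.66 for Isg15 and -1.38 for Mx1. On that scale 2 of 3 HSPC libraries, 2 of 3 B cell libraries and 1 NK cell library listed Mx1 at 0. Protein-coding transcripts held 20.0% of Mx1 TPM in HSPCs, 23.9% in monocytes, 11.2% in B cells, 3.18% in NK cells and 43.9% in T cells.

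The IFIT genes stayed under the minimum for the test in TPM. Ifit1 stayed at 0.00827 to 0.16 TPM in the 12 libraries other than monocytes and was at 1.04, 1.60 and 1.64 in monocytes. Ifit3 was at 1.45, 0 and 2.38 TPM in monocytes, 0.333, 0.197 and 0.273 for B cells, 0.0291, 0.0739 and 0.0828 for NK cells, 0.25, 0.178 and 0.179 for T cells and 0.00358, 0 and 0.00502 for HSPCs. Monocyte replicate 2 listed Ifit3 at 0 while Ifit3b stood at 0.357 TPM there, and the near-identical sequence of the pair makes its split between them uncertain. Of the 4 IFIT genes only Ifit3 was lower in HSPCs in coding TPM, and Ifit1 and Ifit3 were higher in T cells. Of all genes, 45.5% were called in either direction in HSPCs on this scale and 50.5% in T cells. These counts are therefore no result about the IFIT genes.

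Ifitm3 and Lgals3bp were the 2 members higher in HSPCs in coding TPM, by 1.51 (SE 0.365, limma adjusted p = 0.00379) and 1.15 (SE 0.144, limma adjusted p = 1.8e-05). In TPM, Ifitm3 was lower in HSPCs (-0.56, SE 0.195, limma adjusted p = 0.0164), and this call was lost without HSPC replicate 1 (-0.32, adjusted p = 0.171) and turned without the monocyte libraries (1.28, limma adjusted p = 1.2e-04). Lgals3bp did not differ in TPM (-0.03, 95% interval -0.55 to 0.49, limma adjusted p = 0.91). Ifitm3 stayed lower in B and T cells on both scales, by 2.86 and 2.96 in TPM (log2 differences -2.86 and -2.96) and with differences of -3.93 and -3.46 in coding TPM.

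Of 19 members lower in HSPCs in coding TPM that had a promoter window, 10 held the ISRE core. Of 11 tested members with a window that were not called, 6 held it.

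T cells were lower for 16 of 19 members in TPM, against 76.3% of the 5844 genes, and none was higher (9.58%). Without the monocyte libraries 3 of 19 were lower in TPM (Ifitm3, Ly6e and Psmb9; 46.9%) and 3 higher (Ifi27l2a, Ifi47 and Igtp; 11.5%). In coding TPM 18 of 41 were higher (13.5%) and 7 lower (37%), with a median of 0.41 against -0.36 over all genes. The T cell libraries also held the highest summed plasmacytoid dendritic cell markers, mainly Ccr9 in TPM, and NK cell markers, mainly Nkg7 (above). Their part in this was not tested. Ifi47 and Igtp, of the IRG and GBP GTPases, were among the higher ones. Ifi47 was at 351, 419 and 394 coding TPM in T cells and 70.5 to 156 in the other 12 libraries, with a difference of 1.87 (SE 0.126, limma adjusted p = 4.2e-08). Igtp, another immunity-related GTPase, was at 152, 209 and 171 coding TPM against 46.6 to 58.9 elsewhere. Gbp3, a guanylate-binding protein, was lower in T cells in coding TPM (-1.28). Ly6e and Psmb8 were lower in TPM by 2.11 and 1.37 (log2 differences -2.11 and -1.37) and differed by 0.10 and 0.13 in coding TPM, where neither passed the test. Without the monocyte libraries Ly6e was still lower in TPM (-1.29, limma adjusted p = 0.0067) and Psmb8 was not called (-0.62).

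B cells were higher for 4 of 19 members in TPM (Ifi27l2a, Ly6e, Parp14 and Stat2; the 5844 genes, 15%) and lower for 6 (Bst2, Ifitm3, Igtp, Irf7, Lgals3bp and Parp9; 37%). Without the monocyte libraries this balance turned, with 12 of 19 higher (32.6%) and 2 lower, Ifitm3 and Lgals3bp (11.5%). Without B cell replicate 2 the count of higher members was 2. The log2 difference of Ifi27l2a was 2.17 in TPM (SE 0.234, limma adjusted p = 4.0e-06) and 3.11 in coding TPM. Lgals3bp was lower by both measures (-1.98, SE 0.241, limma adjusted p = 1.1e-05, and -2.42). In coding TPM 14 of 41 members were higher (17.2%) and 9 lower (30.8%). In coding TPM the 3 B cell libraries lay wholly above the other 12 for 5 of 41 members (all genes, 6.7%). These were Adar, Ifi27l2a, Ly6e, Oasl1 and Psmb9. The B cell libraries lay wholly below for 2, Gbp7 and Lgals3bp (5.93%). In TPM they lay wholly below for 1 of 33, Lgals3bp (1.88%). That count is over all 33 members and 10266 genes tested in TPM. It includes the 14 members that passed the minimum through monocytes alone, of which Lgals3bp is not one. Oasl1, an oligoadenylate synthetase-like protein that represses translation of Irf7, stood at 32.5, 35.5 and 45.5 coding TPM in B cells and 4.11 to 20.0 elsewhere.

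NK cells were higher for Lgals3bp alone in TPM (0.86, SE 0.241, limma adjusted p = 0.0119; the 5844 genes, 8.97%) and lower for 10 of 19 members (21.9%). Without the monocyte libraries 3 of 19 were higher, Ifitm3, Irf7 and Lgals3bp (21.1%), and 1 lower, Ifi27l2a (1.86%), and Ifitm3 turned to 1.17 (limma adjusted p = 9.0e-04). Without NK cell replicate 3 Lgals3bp was no longer called. Without NK cell replicate 1 the share of all genes called in TPM fell from 41.9% to 24.3%. The count over all tested members fell too, as given in the section on processing. In coding TPM Lgals3bp was higher by 1.53 (SE 0.144, limma adjusted p = 3.7e-06). Gbp7 and Irf7 were the other 2 higher there (14.5%), and 9 of 41 were lower (6.51%). Ifi27l2a was lower on both scales (-2.70, SE 0.234, limma adjusted p = 1.7e-06, and -2.67). Ly6e was lower in TPM (-0.95, limma adjusted p = 0.0263), a call that was lost without NK cell replicate 1 or 2 and without monocytes (-0.05). Gbp3 was at 0.347, 0.447 and 0.605 TPM in NK cells, 14.8, 16.0 and 13.3 for monocytes, 1.59, 1.41 and 1.56 for B cells, 0.317, 0.264 and 0.37 for HSPCs and 0.105, 0.193 and 0.216 for T cells.

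**Figure D5:**
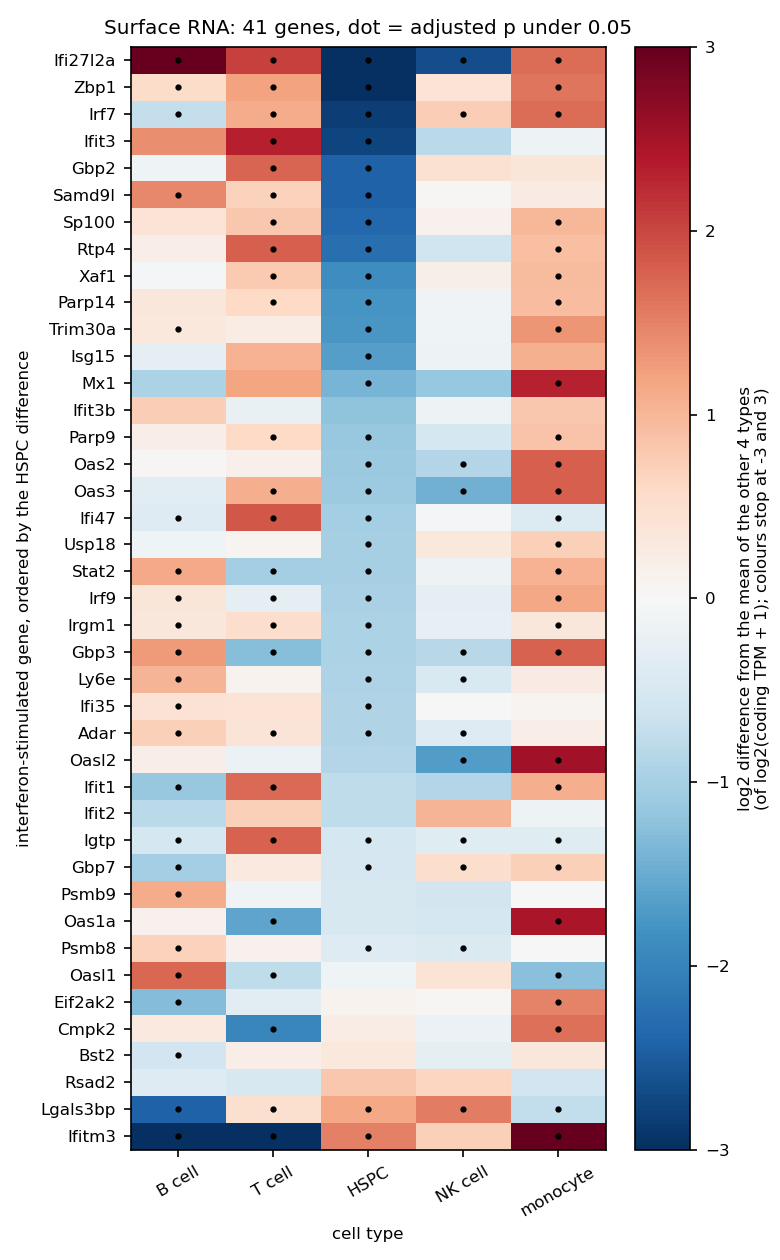
Difference of each cell type from the mean of the other 4 for 41 interferon-stimulated genes, in log2(coding TPM + 1). Rows are ordered by the HSPC difference, colours stop at -3 and 3, and a dot marks an adjusted p below 0.05. The HSPC column is blue for 35 of 41 genes, with Ifitm3 and Lgals3bp as its red, dotted exceptions.

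The immunoproteasome subunits Psmb8 and Psmb9, which cut peptides for display on MHC class I, and the tetherin gene Bst2, whose product retains budding virus, were among the 8 most abundant members. Psmb8 was at 45.7, 52.8 and 44.9 TPM in monocytes, 12.5, 8.36 and 8.55 for B cells, 2.42, 5.93 and 6.05 for NK cells, 1.61, 4.50 and 3.19 for T cells and 1.89, 3.58 and 2.88 for HSPCs. Psmb9 was at 23.6, 20.8 and 25.4 TPM in monocytes, 5.64, 4.77 and 3.97 for B cells, 2.41, 3.28 and 3.03 for NK cells, 0.687, 2.02 and 1.63 for T cells and 0.964, 1.41 and 1.17 for HSPCs. Bst2 was at 19.8, 25.3 and 27.3 TPM in monocytes, 2.22, 2.00 and 1.89 for B cells, 1.80, 1.89 and 2.88 for NK cells, 0.749, 1.82 and 1.95 for T cells and 1.5, 2.90 and 2.17 for HSPCs. Apart from monocytes, Bst2 overlapped between all types, and it was 1 of 13 tested members with no lower call in HSPCs in coding TPM.

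Rsad2 was scarce on every surface and its mean stayed under the minimum for the test in TPM. It was at 1.03, 0.938 and 1.56 TPM in monocytes, 0.105, 0.103 and 0.0366 for B cells, 0.132, 0.0925 and 0.273 for NK cells, 0.049, 0.0687 and 0.0153 for T cells and 0.119, 0.135 and 0.123 for HSPCs. It was called in no cell type in coding TPM. Cmpk2, its neighbour, was at 13.7, 10.1 and 13.8 TPM in monocytes and at 0.0583 to 0.886 TPM elsewhere.

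The transcripts behind these values were not all protein-coding. Transcripts typed as retained intron took 30.1% to 42.5% of the members' TPM in B cells, 24.6% to 29.6% in HSPCs, 15.7% to 27.0% in NK cells, 15.8% to 18.6% in monocytes and 13.5% to 15.4% in T cells. For Ly6e the share was 40.0%, 57.7% and 55.6% in B cells, 50.1%, 40.4% and 42.2% in HSPCs, 36.0%, 42.1% and 38.0% in monocytes, 21.9%, 32.4% and 43.3% in NK cells, and 13.0%, 15.2% and 19.5% in T cells. Its T cell libraries lay below all others.

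Most other genes of the pathway were lower in HSPCs too. Of 52 tested in coding TPM, 39 were lower in HSPCs (all genes, 20.9%), among them 4 of 6 receptor subunits, 8 of 9 kinases and transcription factors and all 5 inhibitors. Jak1 differed by -1.51 and Irf1 by -1.96. The 4 higher ones were Ifitm1 (3.28, SE 0.432, limma adjusted p = 2.8e-05), Ifitm2 (2.35), Isg20 (1.47) and the receptor subunit Ifngr1 (0.47). Ifitm1, Ifitm2 and the member Ifitm3 are of 1 family of membrane proteins. Of 11 interferon ligands only Ifng, the type II interferon, could be tested, and it was higher in NK cells by 5.07 (SE 0.511, limma adjusted p = 6.8e-06). In monocytes 32 of 52 were higher (38%) and 7 lower (17.5%), in T cells 19 (13.5%) and 16 (37%), in B cells 17 (17.2%) and 11 (30.8%), and in NK cells 12 (14.5%) and 5 (6.51%).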

How the data were processed

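The PBMC tables that the authors deposited hold RSEM expected counts, with TPM beside them. The submitters' processing notes also list Trim Galore, STAR, featureCounts and the builds mm10 and hg38, without saying which files each made. For the surface libraries the authors trimmed reads with Trimmomatic, removed duplicates by barcode and deposited TPM per transcript from Kallisto. The transcript sets are not given in the sources used here, and the monocyte table lists more transcripts (149488) than the other 4 (102168). The assay, AMOUR, binds fixed intact cells to lectin beads, anneals a random T7 oligonucleotide and amplifies exposed RNA in place with T7 RNA polymerase.

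After rounding to whole numbers, the expected counts were fitted with edgeR 4.0.16 in R 4.3.3 (TMM, filterByExpr, quasi-likelihood test, 9 libraries in 1 fit). Surface TPM were summed by gene name over the genes named in all 5 tables and fitted with limma 3.58.1 with a mean-variance trend on log2(TPM + 1), 15 libraries in 1 fit. The study's methods name DESeq2 on read counts, but the surface files hold TPM, which are not counts. DESeq2 1.42.0 was an alternative for PBMCs. Scripts were tested on simulated data. Calls needed a Benjamini-Hochberg adjusted p below 0.05 over all genes tested. The study calls the surface replicates biological. For PBMCs nothing in the sources used here says that replicates came from separate animals, so those p-values measure the spread between these libraries, which may be technical. Gene positions are from the GENCODE annotation of GRCm38, matched by identifier. Intervals of fold changes cover 95%.

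Values in every library are given, in PBMCs, for called members and those with the largest difference in Y against ct until 6 were reached, on the surface for the 8 with the highest mean TPM and up to 3 called members per comparison with the largest difference, and always for Isg15, Irf7, Ifit1, Ifit3, Mx1 and Stat2. Cmpk2, Zbp1, Ifi47, Igtp, Oasl1 and surface Rsad2 were added after their values were seen. The members, the pathway and marker lists and the tests were chosen with earlier results of these data known. Alternatives were other scalings, filters, pseudocounts and tests, a replicate block and leaving out libraries.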

Additional observations from a re-analysis of the deposited data

How the results depend on the processing

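In PBMCs Rsad2 stayed the only member called, lower in WT and in Y than in ct, under DESeq2 size factors, the DESeq2 test, no filter on low counts, the 2 groups fitted alone, libraries without ribosomal and mitochondrial genes and every library left out in turn, and no member was called in Y against WT under any of these. Leaving out 1 library gave log2 fold changes from -0.753 to -0.584 in WT and from -0.861 to -0.692 in Y against ct. Some uncalled members changed sign. Eif2ak2 in Y against WT was -0.001 and became 0.001 with DESeq2 size factors and 0.006 with DESeq2. With 1 library left out it ran from -0.097 to 0.175, Ifit1 from -0.311 to 0.029 in WT against ct and from -0.34 to 0.111 in Y against WT, and Mx1 from -0.192 to 0.379 in WT against ct. Over all genes, edgeR called 275 in WT against ct, 81 in Y against ct and 146 in Y against WT, DESeq2 called 170, 69 and 97, and edgeR with no filter 484, 257 and 367.

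Taken over all groups, the replicate numbers did not pair the samples. Deviations of same-numbered libraries had correlations from -0.0477 to 0.0635 in PBMCs and from -0.259 to 0.458 on the surface. Taking each library against each other group, the best correlation was with its own number in 6 of 18 and 22 of 60 cases. T and NK cells went the other way. Between them same-numbered libraries had correlations of 0.458, 0.218 and 0.342, and other pairs -0.377 to 0.130. Whether these libraries share a source was not tested. With the replicate block Rsad2 kept its calls (-0.673 and -0.786) and Eif2ak2 in Y against WT was 0.005, and the block moved no surface count by over 1.5 times.

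Surface counts that follow are over all 33 members tested in TPM, so they hold the 14 that passed the minimum through monocytes alone, and they serve only to compare settings. The share of all genes tested that was called stands in brackets, and counts that move with it are no result about the members. Members called in either direction in TPM were 33 in monocytes (94.0%), 32 in HSPCs (82.7%), 29 in T cells (88.9%), 20 in B cells (59.3%) and 20 in NK cells (41.9%). In coding TPM they were 12 in NK cells (21.1%). With a pseudocount of 0.1 they were 11 in B cells (41.4%) and 6 for NK cells (13.5%). A mean above 5 TPM left 13 members to test and gave 13 (92.7%), 12 (81.4%), 11 (88.9%), 6 (56.7%) and 8 (34.9%) in the same order. Quantile normalization gave 20 in monocytes (63.0%). Without the monocyte libraries, with 19 members tested, the counts were 14 in B cells (44.2%), 13 for HSPCs (40.3%), 4 for NK cells (23.0%) and 6 for T cells (58.3%), and in coding TPM, an alternative added after seeing the data, 10 in NK cells (20.6%). Leaving out 1 library gave 9 to 23 in NK cells, the lowest without NK cell replicate 1 (24.3%). The causes of the other shifts were not tested.

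In T cells Ly6e turned to 0.099 and Psmb8 to 0.13 in coding TPM, and to 0.171 and 0.141 in coding TPM without monocytes. In HSPCs Lgals3bp turned to 1.151 in coding TPM, 0.106 with a pseudocount of 0.1, 1.192 with quantile normalization, 0.555 without monocytes and 1.031 with both changes. Ifitm3 turned to 1.506, 0.212, 0.351, 1.28 and 2.986 under the same settings. With 1 library left out Lgals3bp ranged from -0.151 to 0.132.

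The summed level without the 3 most abundant members was 497, 498 and 467 CPM in ct, WT and Y, and 66.5, 38.0, 23.96, 57.9 and 512 TPM for B cells, T cells, HSPCs, NK cells and monocytes. In coding TPM all members summed to 6107, 4945, 2426, 3286 and 6530. TPM keep no depth, so the precision of scarce surface values is unknown.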
